A study of Mus musculus with 22 samples.

Results

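Pituitary transcripts stood out in 3 of 17 hypothalamus RNA-seq libraries from a mouse study of Snord116 loss, sleep and sleep deprivation. These 3 libraries were chosen by a rule on the measured values: the summed level of growth hormone (Gh) and prolactin (Prl) had to exceed a counts-per-million (CPM) value of 100, taken over all counts of the library. They are mutant SD replicate 1 at 21989 CPM, mutant SD replicate 4 at 1072 CPM and control ZT6 replicate 1 at 622 CPM. The other 14 libraries ran from 0 to 14.4 CPM, so the nearest values on either side of the threshold were 622 CPM inside and 14.4 CPM outside. Of those 14, 3 held no Gh or Prl count and 11 held at least 1, so the 14 libraries had far fewer of these transcripts rather than none. Of the 22 libraries of the series, 5 were left out as the rule states, and none of those 5 exceeded 0.258 CPM. One of them, mutant ZT6 replicate 2, was so shallow that 3 counts equal 408 CPM, so its 0 does not place it below the threshold. Because Gh and Prl chose the libraries, every difference between the 3 and the 14 given below is a description and carries no test.

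All mice were of the C57BL/6J background, the tissue was hypothalamus, and the labels give neither sex nor age. Mutants were PWScrm+/p− mice, in which the paternally inherited copy of the Snord116 small nucleolar RNA cluster is deleted, and controls were PWScrm+/p+ mice. Tissue was taken at lights-on (ZT0), at ZT6, or at ZT6 from mice kept awake for the preceding 6 h (SD, for sleep deprivation). These 17 libraries comprised 3 control ZT0, 4 control ZT6, 4 control SD, 2 mutant ZT6 and 4 mutant SD libraries. Library totals ran from 14609454 to 46965594 counts. Summed over 17 Snord116 gene copies, no mutant library held a count, including both mutant libraries with pituitary transcripts. The 11 control libraries held 1899 counts together, but unevenly, from 0 to 80.6 CPM with a median of 0.305 CPM. Control ZT6 replicate 1 was at 0.305 CPM. A 0 in a single library therefore does not tell a mutant from a control. Each sample title carries its own number, but the labels do not say that replicates came from separate mice, and how the hypothalamus was cut from the brain is not given in the sources used here.

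The pituitary gland hangs below the hypothalamus on a stalk. Its anterior lobe holds somatotrophs, lactotrophs, thyrotrophs, gonadotrophs and corticotrophs, each known for its hormone, and its intermediate lobe holds melanotrophs, which like corticotrophs make pro-opiomelanocortin (Pomc). The transcription factor POU1F1 (Pit-1) is known to specify somatotrophs, lactotrophs and thyrotrophs, NR5A1 (SF-1) to specify gonadotrophs, and TBX19 and PAX7 to act in Pomc cells and melanotrophs. The hypothalamus itself does not make most of these hormones, but arcuate nucleus neurons express Pomc, and the pars tuberalis, a sheet of pituitary tissue lying against the base of the hypothalamus, expresses Cga and Tshb.

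Levels below are CPM after scaling with TMM factors, which correct the library totals for composition. They compare 1 gene between libraries and are not set between genes. Growth hormone, the somatotroph product (chromosome 11, 106300271 to 106301865, minus strand, GRCm38), was at 17450 CPM in mutant SD replicate 1, at 959 CPM in mutant SD replicate 4 and at 543 CPM in control ZT6 replicate 1. The 14 other libraries ranged from 0 to 15.1 CPM, with a median of 0.291 CPM. Prolactin, the lactotroph hormone (chromosome 13, 27057570 to 27065205, plus strand), was at 2171, 138 and 50.7 CPM in the same order and at no more than 3.20 CPM in the 14. The libraries did not overlap for either gene, as the rule required of their sum. In whole tissue, more cells of a type and more RNA per cell cannot be told apart.

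The other 5 hormone genes were not part of the rule. Luteinizing hormone beta (Lhb, a gonadotroph subunit, chromosome 7, 45420820 to 45421897, plus strand) was at 121 CPM in mutant SD replicate 1, 1.35 CPM in mutant SD replicate 4 and 7.98 CPM in control ZT6 replicate 1, against 0 to 0.174 CPM in the 14. Follicle-stimulating hormone beta (Fshb, the other gonadotroph beta subunit) was at 185, 5.89 and 9.68 CPM in that order, against 0 to 0.753 CPM. The alpha subunit that LH, FSH and thyroid-stimulating hormone share (Cga) was at 793, 15.6 and 47.6 CPM, against 0 to 11.4 CPM. All 3 libraries therefore lay above the 14 for each gonadotropin subunit, and control ZT6 replicate 1 lay above mutant SD replicate 4, the reverse of their order for Gh and Prl. Thyroid-stimulating hormone beta (Tshb) was at 29.3, 1.96 and 1.04 CPM. One of the 14 reached 1.19 CPM, so control ZT6 replicate 1 overlapped them for Tshb. Pomc, which the hypothalamus also makes, was at 4096, 104 and 1144 CPM, while the 14 ran from 17.7 to 92.2 CPM with a median of 30.3 CPM. Its excess in mutant SD replicate 4 was small beside the spread of the 14.

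Thus 4 of the 5 hormone genes outside the rule were higher in each of the 3 libraries than in any of the 14, as were Gh and Prl, which the rule fixed. Of all 21346 genes kept by the low-count filter, 0.422% (90 genes) met the same criterion. Lhb passed this filter only with the 3 libraries included. Together the 7 hormones took 2.78% of all counts in mutant SD replicate 1 (exact 95% binomial interval 2.78 to 2.79), 0.120% in mutant SD replicate 4 (0.118 to 0.121) and 0.189% in control ZT6 replicate 1 (0.188 to 0.190). In the 14 the share ran from 0.00187% (0.00172 to 0.00203) to 0.00991% (0.00957 to 0.0102). These intervals, like all intervals on single libraries below, cover counting error only.

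**Figure D1:**
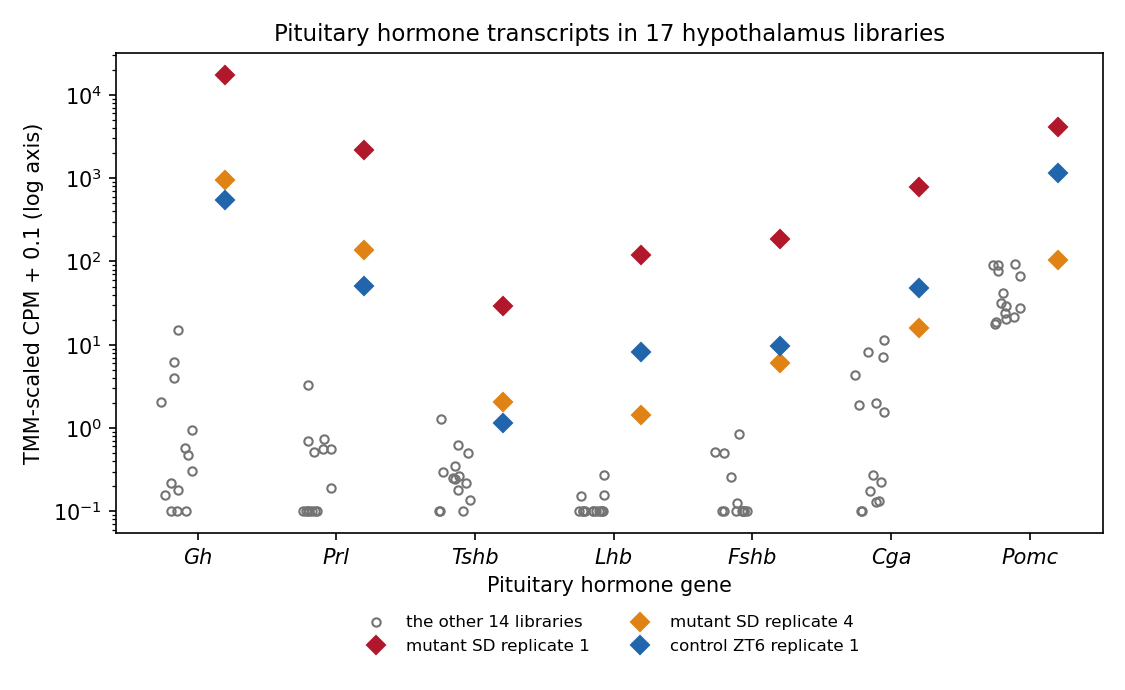
Level of each pituitary hormone gene (TMM-scaled CPM + 0.1, log axis) in the 17 libraries, with open circles for the 14 libraries and diamonds for the 3 chosen by summed Gh and Prl. All diamonds lie above the circles except for Tshb, where control ZT6 replicate 1 (1.04 CPM) lies below the highest circle (1.19 CPM), and control ZT6 replicate 1 changes place with mutant SD replicate 4 between the genes on the left and those from Lhb to Pomc.

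Sample titles carry an index number whose meaning the labels do not give. Mutant SD replicate 1 and control ZT6 replicate 1 have index numbers 2 and 4, and the 2 other libraries numbered 1 to 4 are control SD replicates 1 and 2, with Gh at 0.376 and 6.11 CPM. Mutant SD replicate 4 has index number 43, and the libraries numbered 44 to 46 had Gh at 1.97, 3.90 and 15.1 CPM. High Gh was thus not shared by all libraries numbered 1 to 4 or 43 to 46, although the levels of 3.90 CPM and more in the 14 came from libraries with these numbers. In the whole series the numbers run unbroken from 1 to 18 and from 43 to 46, so no label marks a break after 4.

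The 3 libraries did not hold the pituitary genes in the same proportions. To show this, each gene's level was taken in control ZT6 replicate 1 and in mutant SD replicate 4 and written as a percentage of its level in mutant SD replicate 1, with an exact 95% interval from the counts. For Gh the share was 5.49% (5.41 to 5.58) in mutant SD replicate 4 and 3.11% (3.07 to 3.15) in control ZT6 replicate 1. For Prl it was 6.35% (6.10 to 6.61) and 2.33% (2.24 to 2.43). The receptor for growth hormone-releasing hormone (Ghrhr), which marks somatotrophs, was at 5.78% (3.56 to 8.89) and 2.19% (1.36 to 3.34), and Tshb at 6.71% (4.65 to 9.39) and 3.54% (2.62 to 4.69). For these 4 genes of the cells that depend on POU1F1, mutant SD replicate 4 held the larger share each time. The intervals of Tshb overlapped, and its 1.04 CPM in control ZT6 replicate 1 lay within the 14, which reached 1.19 CPM.

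Gonadotroph genes had the opposite order. Lhb was at 1.12% (0.714 to 1.66) of its mutant SD replicate 1 level in mutant SD replicate 4 and at 6.61% (5.95 to 7.33) in control ZT6 replicate 1. Fshb was at 3.18% (2.60 to 3.86) and 5.23% (4.76 to 5.74), and Cga at 1.97% (1.75 to 2.22) and 6.00% (5.75 to 6.26). The receptor for gonadotropin-releasing hormone (Gnrhr) was at 2.41% (0.881 to 5.28) and 5.82% (4.11 to 8.03), intervals that overlap on 0.337 CPM in mutant SD replicate 4. Between the libraries, Lhb was 5.93-fold higher in control ZT6 replicate 1 than in mutant SD replicate 4, while Gh was 1.77-fold and Prl 2.72-fold higher in mutant SD replicate 4.

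Genes of Pomc cells departed furthest. Pomc stood at 27.9% (27.7 to 28.2) of the mutant SD replicate 1 level in control ZT6 replicate 1 and at 2.54% (2.43 to 2.66) in mutant SD replicate 4. With the median of the 14 subtracted from each, these shares were 27.4% and 1.82%. Pax7, a transcription factor of melanotrophs, was at 18.2 CPM in mutant SD replicate 1, 1.01 CPM in mutant SD replicate 4 and 5.66 CPM in control ZT6 replicate 1, against 0.0824 to 1.29 CPM in the 14. Its share was 31.1% (26.9 to 35.8) in control ZT6 replicate 1. Tbx19, a transcription factor of both Pomc cell types, had a share of 29.2% (26.2 to 32.4) there, and at 3.70 CPM in mutant SD replicate 4 it lay within the 14, which reached 3.93 CPM. In control ZT6 replicate 1, Pomc was 10.99-fold higher than in mutant SD replicate 4. Whether the gland or the share of its lobes differed between these 3 samples was not tested, and each pattern rests on 1 library.

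**Figure D2:**
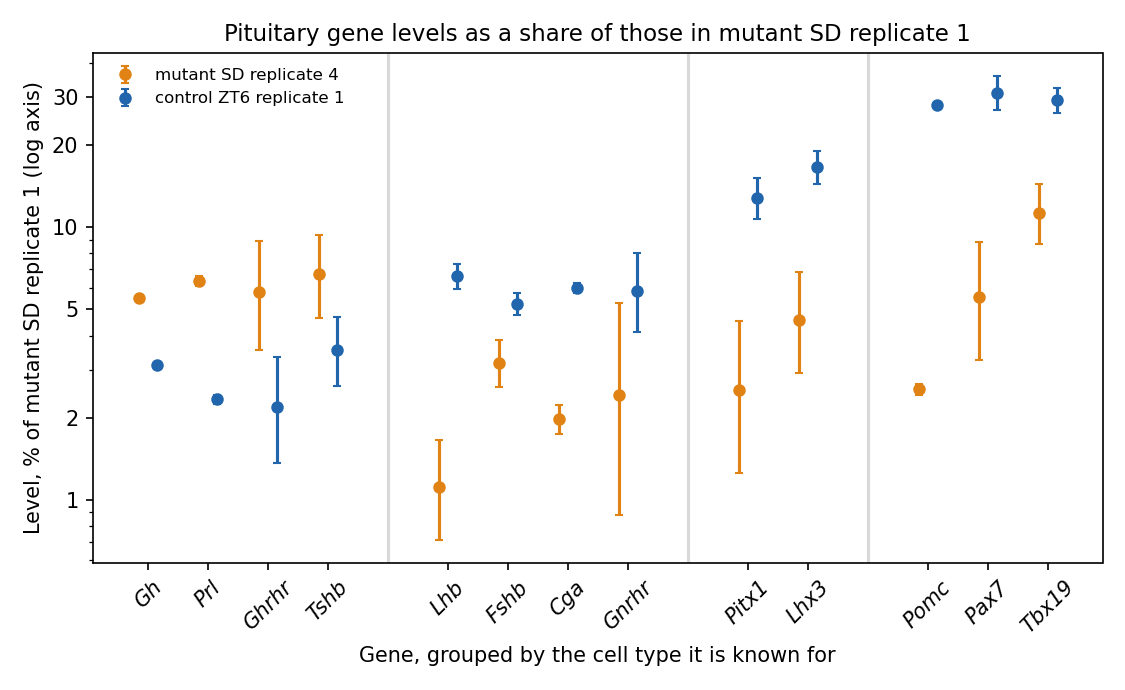
Level in mutant SD replicate 4 (orange) and control ZT6 replicate 1 (blue) as a percentage of the level in mutant SD replicate 1 (log axis), with exact 95% counting intervals, for genes grouped by the cell type they are known for. Orange lies above blue for Gh, Prl, Ghrhr and Tshb and below it for the 9 other genes, with blue at 5.23 to 6.61% for the gonadotroph genes and at 27.9 to 31.1% for Pomc, Pax7 and Tbx19.

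One promoter from each of these groups is printed. Only sites of POU1F1 and NR5A1 were searched, and none of TBX19 or PAX7, the factors named above for Pomc cells. The windows are the 250 bases before the RefSeq start on GRCm38.p6, written along the gene's strand. They were searched on both strands for TATNCAT, a core of the POU1F1 site, and AAGGTCA, the site NR5A1 is known to bind, and capitals mark each match. Over 32851 promoter windows of this length, 7.924% held TATNCAT and 4.079% held AAGGTCA.
Prl, chr13:27057320-27057569, plus strand: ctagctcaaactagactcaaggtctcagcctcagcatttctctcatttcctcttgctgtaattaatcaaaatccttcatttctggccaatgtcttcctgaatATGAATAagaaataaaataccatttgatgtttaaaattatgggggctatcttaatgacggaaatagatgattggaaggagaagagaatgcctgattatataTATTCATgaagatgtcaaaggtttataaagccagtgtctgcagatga
Lhb, chr7:45420696-45420945, plus strand: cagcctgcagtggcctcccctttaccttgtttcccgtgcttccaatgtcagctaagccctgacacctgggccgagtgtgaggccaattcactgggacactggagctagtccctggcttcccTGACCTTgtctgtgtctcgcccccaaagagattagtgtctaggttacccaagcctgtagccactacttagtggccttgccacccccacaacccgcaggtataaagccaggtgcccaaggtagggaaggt
Pomc, chr12:3954695-3954944, plus strand: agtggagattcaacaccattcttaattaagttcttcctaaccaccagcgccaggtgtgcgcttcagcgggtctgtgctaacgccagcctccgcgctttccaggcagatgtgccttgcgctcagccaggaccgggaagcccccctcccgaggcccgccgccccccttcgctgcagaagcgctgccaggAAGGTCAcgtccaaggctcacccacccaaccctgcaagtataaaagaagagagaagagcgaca
The Prl window held 2 matches to TATNCAT, beginning 47 and 148 bases before the start (the second on the opposite strand), and none to AAGGTCA. The Lhb window held 1 match to AAGGTCA, on the opposite strand and 129 bases before the start, and the Pomc window 1 match 63 bases before it. The Pomc match is thus to the site of NR5A1, named above for gonadotrophs. The windows of Cga, Tshb, Fshb, Gnrhr, Lhx3, Pax7 and Tbx19 held neither motif, and that of Pou1f1 at its first start held 1 match to TATNCAT. Gh, Ghrhr and Pitx1 had no window in the set used. A match describes the letters of the window and is not evidence of binding in these samples.

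Pituitary transcription factors followed the hormones less closely. Of 15 listed, 14 passed the low-count filter, which a gene could pass through 1 group alone, and Lhx3 was the only one higher in each of the 3 libraries. Lhx3, needed for several anterior lobe lineages, was at 29.5 CPM in mutant SD replicate 1, 1.35 CPM in mutant SD replicate 4 and 4.89 CPM in control ZT6 replicate 1, against at most 1.08 CPM in the 14. Mutant SD replicate 1 lay above the 14 for 9 of the 14 factors, control ZT6 replicate 1 for 5 and mutant SD replicate 4 for 2. The backgrounds for a single library were 10.1%, 6.46% and 7.21% of all genes. Pitx1, a homeobox factor of the whole anterior lobe, was at 24.5, 0.617 and 3.13 CPM in mutant SD replicate 1, mutant SD replicate 4 and control ZT6 replicate 1, and the 14 reached 2.26 CPM. Neurod4, a basic helix-loop-helix factor, was at 5.01, 0.729 and 0.183 CPM against at most 0.370 CPM, with the order of Gh.

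Pou1f1 itself went against Gh in 1 library and fell far less than Gh from mutant SD replicate 1 to mutant SD replicate 4. It was at 16.1 CPM in mutant SD replicate 1, 8.69 CPM in mutant SD replicate 4 and 0.629 CPM in control ZT6 replicate 1, but at 20.5 CPM in control SD replicate 4, whose Gh was 1.97 CPM. The median of the 14 was 0.180 CPM. Nr5a1, Isl1 and Six6 are also known from the hypothalamus or its surroundings and were present in all 17 libraries. Nr5a1 was at 23.3, 15.6 and 29.0 CPM in the 3 and at 9.56 to 28.5 CPM in the 14. Isl1 was at 26.0, 28.0 and 24.4 CPM against 17.3 to 35.5 CPM, and Six6 at 34.7, 14.5 and 11.6 CPM against 8.79 to 19.8 CPM. Gata2, a factor of gonadotrophs and thyrotrophs, was at 12.8 CPM in mutant SD replicate 1 against at most 4.53 CPM in the 14, and the 2 other libraries lay within the 14. Foxl2, a gonadotroph factor, was at 5.06 CPM there against at most 1.97 CPM. Lhx4 stayed within the range of the 14 in all 3 libraries, and Hesx1 had no count in the 3 or in the 14.

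All 10 listed receptors passed the low-count filter, but only 7 did so without the 3 libraries. Among the 10, Ghrhr was the only one higher in each of the 3. It was at 20.4 CPM in mutant SD replicate 1, 1.18 CPM in mutant SD replicate 4 and 0.447 CPM in control ZT6 replicate 1, and at no more than 0.0269 CPM in the 14. Gnrhr was at 13.95, 0.337 and 0.812 CPM against at most 0.413 CPM. The dopamine receptor Drd2, through which dopamine restrains lactotrophs, was at 50.7 CPM in mutant SD replicate 1 and 25.1 CPM in control ZT6 replicate 1 against at most 23.6 CPM. The estrogen receptor Esr1 was at 46.8 CPM in mutant SD replicate 1 against at most 24.7 CPM. Avpr1b, the vasopressin receptor of corticotrophs, was at 0.712 CPM in mutant SD replicate 1 against at most 0.488 CPM in the 14. Crhr1, Trhr, Sstr2, Sstr5 and Ghsr, which hypothalamic neurons also express, lay within the 14 in mutant SD replicate 1, and Ghsr lay above them only in mutant SD replicate 4, at 8.81 against 8.71 CPM.

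Genes of prohormone processing, which neurons and endocrine cells share, did not follow the hormones. None of 11 was higher in each of the 3 libraries, and their summed level of 7272, 8760 and 5984 CPM in mutant SD replicate 1, mutant SD replicate 4 and control ZT6 replicate 1 lay within the 4733 to 10422 CPM of the 14. The convertase Pcsk2, which cuts POMC to melanocyte-stimulating hormone, was at 415, 233 and 277 CPM against 161 to 265 CPM. Pcsk2 thus exceeded the 14 in the 2 libraries with the most Pomc, and no other gene of the 11 did so there. Each of these 2 libraries also had 1 processing gene below the 14. Mutant SD replicate 4, with the least Pomc of the 3, had 2 processing genes above the 14. Over all genes the shares above the 14 were 10.1%, 7.21% and 6.46%, in the order of libraries used for Pcsk2. Whether Pcsk2 followed Pomc was not tested.

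Epithelial genes, which neurons express little, were highest in mutant SD replicate 1. Their summed level was 82.4 CPM there, 7.40 CPM in mutant SD replicate 4 and 21.6 CPM in control ZT6 replicate 1, against 5.25 to 25.0 CPM in the 14. Of 9 kept, 8 lay above the 14 in mutant SD replicate 1, 6 in control ZT6 replicate 1 and 1 (Cldn4) in mutant SD replicate 4. Over all genes the shares were 10.1%, 6.46% and 7.21% in that order. Without the 3 libraries 6 epithelial genes passed the filter, so these counts rest in part on genes kept through the 3. Keratin 8 (Krt8) was at 19.3, 1.51 and 4.77 CPM against at most 2.01 CPM. The tight junction gene Cldn3 was at 7.39, 0.280 and 1.95 CPM against at most 0.352 CPM, and the splicing regulator Esrp1 at 13.1, 0.168 and 1.60 CPM against at most 0.507 CPM. The epithelial adhesion gene Epcam had no count in the 3 libraries.

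Beyond the lists, 90 genes in all were higher in each of the 3 libraries than in any of the 14, and 9 of them, 0.0422% of 21346 genes, by at least 2-fold. These 9 were Gh, Ghrhr, Prl, Fshb, Lhb, Cldn4, Gm14617, Alox15 and Tmem30b. Gm14617, a processed transcript on chromosome 2, was at 15.96 CPM in mutant SD replicate 1, 0.785 CPM in mutant SD replicate 4 and 0.365 CPM in control ZT6 replicate 1, against at most 0.101 CPM. Its shares of 4.92% and 2.29% over the median of the 14 were like those of Gh and Prl. The lipoxygenase Alox15 was at 5.51, 0.505 and 1.42 CPM against at most 0.209 CPM, and Alox12e, which lies 21524 bases from it on chromosome 11, at 10.9, 0.280 and 3.07 CPM against at most 0.155 CPM. Tmem30b, a flippase subunit gene, was at 10.3, 1.51 and 1.87 CPM against at most 0.697 CPM. Ap1m2, an adaptor subunit gene of epithelial cells, was at 7.89, 0.449 and 1.44 CPM against at most 0.232 CPM.

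Further down the ranking by the ratio of the lowest of the 3 to the highest of the 14, the genes outside the lists were Gnb3, Gm2260, Il17re, Cyp4f17, Platr9, 1810049J17Rik, Kdf1, Gm22238, Gm15883, Meltf, Gm4202, H6pd, Lmntd2, Lrp5 and Tmprss2, with ratios from 1.85 to 1.19. Several were level across the 3 libraries and thus unlike the hormones. The Wnt co-receptor gene Lrp5 was at 21.9, 19.9 and 22.01 CPM against 6.38 to 16.7 CPM, and Cyp4f17 was highest in mutant SD replicate 4, at 4.71 CPM. Platr9, at 407, 13.6 and 25.5 CPM, overlaps Cga by 1246 bases on the opposite strand, and Gm15883 overlaps Cyp2f2. The labels do not state strand-aware counting, so reads of such pairs cannot be told apart. The count of 90 also depended on single libraries of the 14: it was 143 without control SD replicate 1 and 176 without control SD replicate 2. These 2 have index numbers 1 and 3, and 2 of the 3 libraries have numbers 2 and 4.

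Mutant SD replicate 1 had the most hormone transcripts, so genes at least 5-fold above the highest of the 14 and at 2 CPM or more were counted there. There were 75, which is 0.351% of all genes, and 19 were on the marker lists. Counted in the same way against the libraries outside the 3, control ZT6 replicate 2 had 167 such genes and so exceeded mutant SD replicate 1. Of the 75, 61 lay above the 14 in control ZT6 replicate 1 and 29 in mutant SD replicate 4. Over all genes the shares were 6.46% and 7.21%. The low-count filter asked for counts in more than a single library. A gene near 0 in the 14 could therefore pass only if another of the 3 libraries held it, which fixes this overlap in part. With the median of the 14 subtracted, the median gene reached 15.3% of its mutant SD replicate 1 excess in control ZT6 replicate 1 and 2.57% in mutant SD replicate 4.

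The excess in control ZT6 replicate 1 was under 8% for 21 of the 75 genes, 8 to 20% for 36 and 20% or more for 18. The first class held the hormones Gh, Prl, Tshb, Lhb, Fshb and Cga, the receptors Ghrhr and Gnrhr, and Neurod4. The last class held Pomc, Pax7, Tbx19, Krt8, Cldn3 and Cldn4. Outside the lists it also held genes chosen after their values were seen: Oacyl, an acyltransferase-like gene, was at 155, 3.14 and 34.8 CPM against at most 2.99 CPM in the 14, Gulo, which encodes the last enzyme of vitamin C synthesis, at 10.97, 0 and 3.31 CPM against at most 0.348 CPM, and Cyp2f2, a cytochrome P450 gene, at 70.6, 2.75 and 14.9 CPM against at most 3.33 CPM. Between them lay Pitx1 and Lhx3, at 11.8% and 15.3%.

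**Figure D3:**
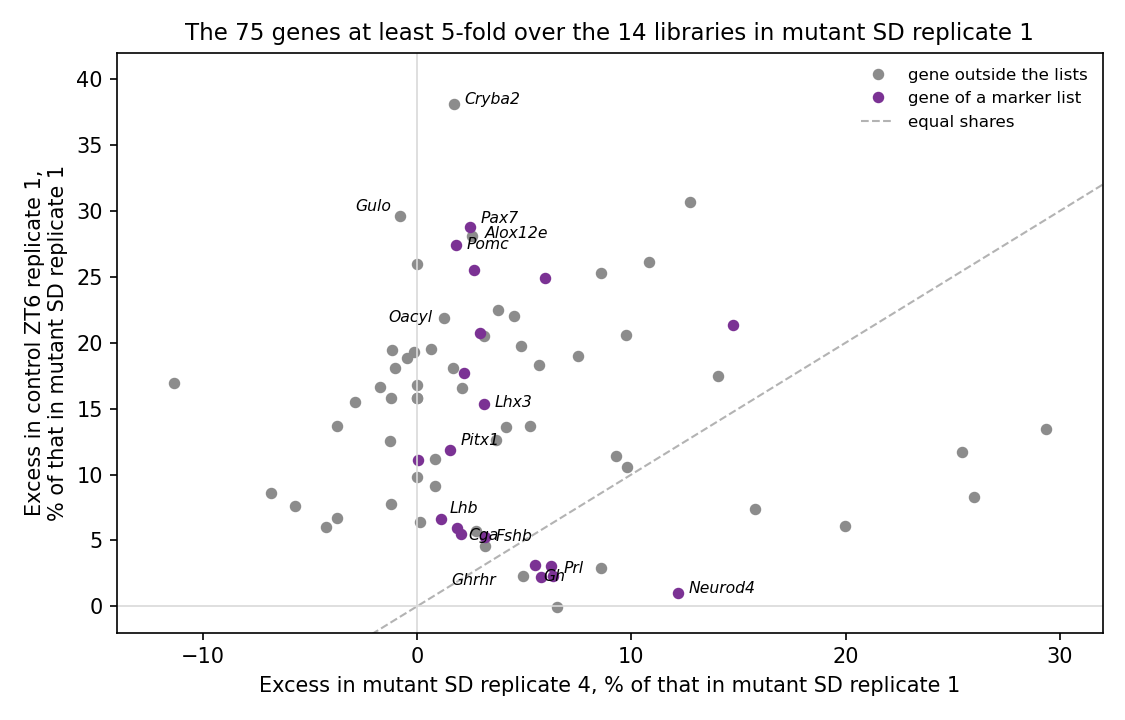
Excess over the median of the 14 libraries in mutant SD replicate 4 (x axis) and control ZT6 replicate 1 (y axis), each as a percentage of the excess in mutant SD replicate 1, for the 75 genes at least 5-fold over the 14 there. Purple points are genes of a marker list, grey points other genes, and the dashed line marks equal shares. Gh, Prl and Ghrhr lie below the line, whereas Pomc (27.4% on the y axis) and Pax7 (28.8%) lie far above it.

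The weaker libraries had fewer such genes. At 2-fold and 2 CPM, mutant SD replicate 1 had 212 genes over the 14 (0.993%). By the same limits against the other libraries of the 14, control ZT6 replicates 2 and 3 had 338 and 276, control SD replicate 4 had 57 and mutant ZT6 replicate 4 had 46, so the counts in the 3 libraries did not exceed those of every other library. In control ZT6 replicate 1, 22 genes (0.103%) were at least 2-fold over the 14 at 2 CPM or more. All 22 also lay above the 14 in mutant SD replicate 1, and 10 were on the lists: Gh, Prl, Lhb, Fshb, Cga, Pomc, Lhx3, Pax7, Tbx19 and Krt8. The low-count filter fixes this overlap in part as well. For 17 of the 22 the level was higher in mutant SD replicate 1. The exceptions, named after their values were seen, were Col13a1, Ism2, Abca4, Fndc3c1 and Ano1. Col13a1, a transmembrane collagen gene, was at 26.0 CPM in control ZT6 replicate 1, 14.3 CPM in mutant SD replicate 1 and at most 5.02 CPM in the 14. In mutant SD replicate 4, 25 genes (0.117%) passed the same limits, and 3 of them were on the lists, namely Gh, Prl and Fshb. Only 8 of the 25 lay above the 14 in mutant SD replicate 1, so most genes that stood out in mutant SD replicate 4 were not those of the other 2 libraries. An example, also chosen after its values were seen, is the transcription factor gene Zbtb16, at 43.4 CPM there and 13.3 CPM in mutant SD replicate 1, with the 14 reaching 18.5 CPM.

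Fewer genes were lower in each of the 3 than higher. There were 46 (0.215%), and none lay far below the 14. The kinase gene Jak2 led with 24.6, 24.6 and 21.5 CPM against 29.4 to 53.3 CPM. Next came Dcun1d1, mt-Td, Olfr1396, Ramac, Ywhaz, Cd8a, A530058N18Rik, BC048644 and Sri, whose highest level in the 3 was 0.840 to 0.910 of the lowest in the 14. With CPM of library totals in place of TMM scaling the count was 17.

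At the other end, mutant SD replicate 1 lay below the 14 for 6.49% of all genes, mutant SD replicate 4 for 8.90% and control ZT6 replicate 1 for 3.26%. Neural and other markers differed between the 3 libraries as well, and their part in the results above was not tested. In mutant SD replicate 1, 6 of 7 myelin genes lay below the 14, with a summed level of 2994 CPM against 4904 to 8178 CPM, while mutant SD replicate 4 had 8040 CPM and control ZT6 replicate 1 had 5528 CPM. Peptides of lateral hypothalamic neurons were low in the 2 of these libraries with index numbers 2 and 4. Melanin-concentrating hormone (Pmch) was at 230 CPM in mutant SD replicate 1 and 369 CPM in control ZT6 replicate 1, below the 397 to 1191 CPM of the 14, but at 561 CPM in mutant SD replicate 4. Orexin (Hcrt) was at 17.4, 80.4 and 23.8 CPM in mutant SD replicate 1, mutant SD replicate 4 and control ZT6 replicate 1, against 25.7 to 186 CPM. Control SD replicates 1 and 2, with index numbers 1 and 3, had 528 and 461 CPM of Pmch, in the lower part of the 14.

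Blood transcripts marked mutant SD replicate 4. All 5 listed genes lay above the 14 there, and their sum was 1881 CPM against 249 to 1451 CPM, with 411 CPM in mutant SD replicate 1 and 688 CPM in control ZT6 replicate 1. Astrocyte genes summed to 2531 CPM in mutant SD replicate 1, below the 2635 to 3574 CPM of the 14. The summed levels of the hypophysiotropic peptide, arcuate, tanycyte, thalamic, cortical, striatal, meningeal, endothelial and microglial lists lay within the 14 in mutant SD replicate 1 and control ZT6 replicate 1. Choroid plexus genes summed to 56.4 CPM in mutant SD replicate 1 against at most 49.2 CPM in the 14, and Folr1, at 7.02 against at most 0.926 CPM, was the listed gene that stood furthest apart. The fibroblast gene Dcn was at 50.1 CPM in mutant SD replicate 1 and 33.9 CPM in control ZT6 replicate 1, against at most 33.4 CPM.

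**Figure D4:**
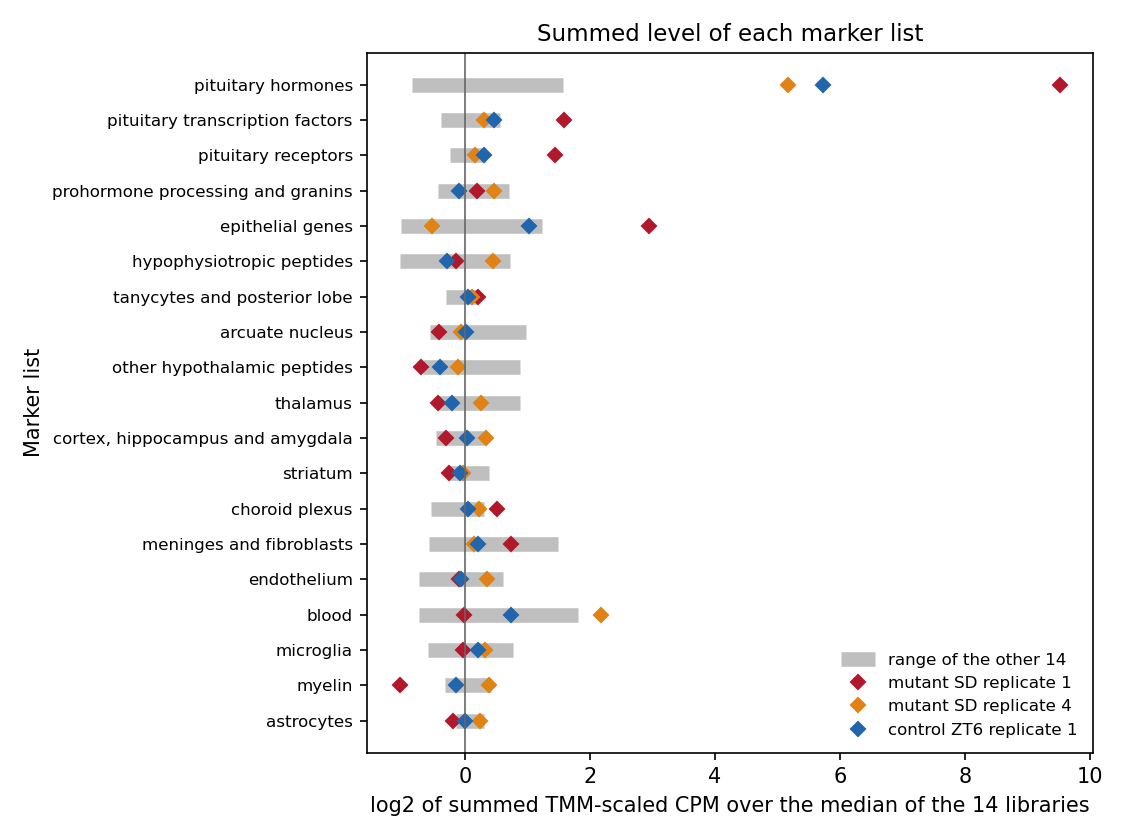
Summed level of each marker list, as log2 of its ratio to the median of the 14 libraries, with grey bars for the range of the 14 and diamonds for the 3 libraries. All 3 lie above the bar for the pituitary hormones only. Mutant SD replicate 1 (red) also lies above it for transcription factors, receptors, epithelial genes and choroid plexus and below it for myelin, astrocytes and other hypothalamic peptides, and mutant SD replicate 4 (orange) lies above it for blood and slightly for the cortical list.

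Among the 14, Cga and Gh were high together in some libraries and not in others. Cga was at 11.4 CPM in control SD replicate 2, 8.05 CPM in control ZT6 replicate 2, 7.06 CPM in control SD replicate 4 and 4.25 CPM in control ZT6 replicate 4, and 3 of these (control SD replicates 2 and 4 and control ZT6 replicate 4) also had Gh at 6.11, 1.97 and 3.90 CPM. Mutant ZT6 replicate 4 had the most Gh of the 14, at 15.1 CPM, and no Cga count, which at its depth allows up to 0.106 CPM of library totals. Control ZT6 replicate 2, with Cga at 8.05 CPM, had Gh at 0.207 CPM. The 7 libraries of the 14 with the most Cga shared 6 with the 7 that had the most Pitx1 and 4 with the 7 that had the most Gh. These genes were chosen after their values were seen. Pitx1 shared 5 with Gh, and Rax, of the tanycyte list, shared 6 with Gh, 6 with Pitx1 and 5 with Cga. An overlap of 6 was thus not particular to Cga and Pitx1. By group, without the 3 libraries, Cga was at 5.12 ± 5.11 CPM in control SD (SD, n = 4), 4.16 ± 3.94 CPM in control ZT6 (SD, n = 3) and 1.10 ± 0.905 CPM in control ZT0 (SD, n = 3). It was at 0.0149 ± 0.0211 CPM in mutant ZT6 and 0.0168 ± 0.0238 CPM in mutant SD (SD, n = 2 each). The rule took out the mutant SD libraries with the most Cga, at 793 and 15.6 CPM. With them the mutant SD mean was 202 ± 394 CPM (SD, n = 4), so nothing about genotype is read from these means.

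The labelled comparisons use 1 or 2 of the 3 libraries, and all share one estimate of spread and, in part, the same control samples. In edgeR's quasi-likelihood test with Benjamini-Hochberg adjustment over 21346 genes, 0 genes (0%) passed an adjusted p of 0.05 in any of the 5 comparisons with all 17 libraries. At an unadjusted p under 0.05 there were 631 in mutant SD minus control SD, 1318 in control SD minus control ZT6, 461 in mutant SD minus mutant ZT6, 566 in mutant ZT6 minus control ZT6 and 694 in control ZT6 minus control ZT0. DESeq2 called 1, 18, 16, 15 and 23 genes in the same order. With 3 runs of index numbers as a covariate, an alternative added after the data were seen, edgeR called 3 genes in mutant SD minus control SD: Prl (adjusted p = 0.000297), Lhb (adjusted p = 0.00214) and Gm14617 (adjusted p = 0.00695). The libraries were chosen on Gh and Prl, and Lhb and Gm14617 lay above the 14 in both chosen mutant SD libraries. Nothing about genotype is read from these 3 calls. These p-values measure the spread between the samples of each group, which may in part be technical.

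The hormone genes turned direction in mutant SD minus control SD when the 3 libraries were taken out, a result that the choice of the libraries fixes in part and that carries no test of genotype. Mutant SD held 2 of the 3 libraries. Gh was at 17450, 0, 0 and 959 CPM in mutant SD replicates 1 to 4 and at 0.376, 6.11, 0.0824 and 1.97 CPM in control SD replicates 1 to 4. The groups overlapped: 2 mutant libraries had 0 Gh counts, which at a floor of 3 counts cannot be placed below control SD replicate 3 with its 2 counts. With all 17 libraries the log2 fold change of Gh was 11.06 ± 3.61 (SE) and that of Prl 10.33 ± 2.89, with adjusted p = 0.999 in edgeR, and all 7 hormone genes were positive with a median of 7.30 against -0.02 over all genes. Without mutant SD replicate 1 alone the log2 fold change was 7.21 for Gh, 6.70 for Prl, 2.69 for Lhb (8.76 with it) and 0.02 for Cga (5.30 with it). Without the 3 libraries 0 of the 6 hormone genes still tested were positive, the median was -6.25 against -0.05 over all genes, and the edgeR adjusted p of Gh was 0.835. Gh had 0 counts in mutant SD replicates 2 and 3. The control SD mean of Gh was 2.13 ± 2.78 CPM (SD, n = 4), with replicate 2 at 6.11 CPM. No fold is given, since the rule on Gh and Prl took out the mutant SD libraries with high Gh. Pomc was at 18.6 and 21.5 CPM in mutant SD replicates 2 and 3 and at 29.1 to 92.2 CPM in control SD, with a log2 difference of -1.79 ± 0.64 (edgeR adjusted p = 0.835).

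**Figure D5:**
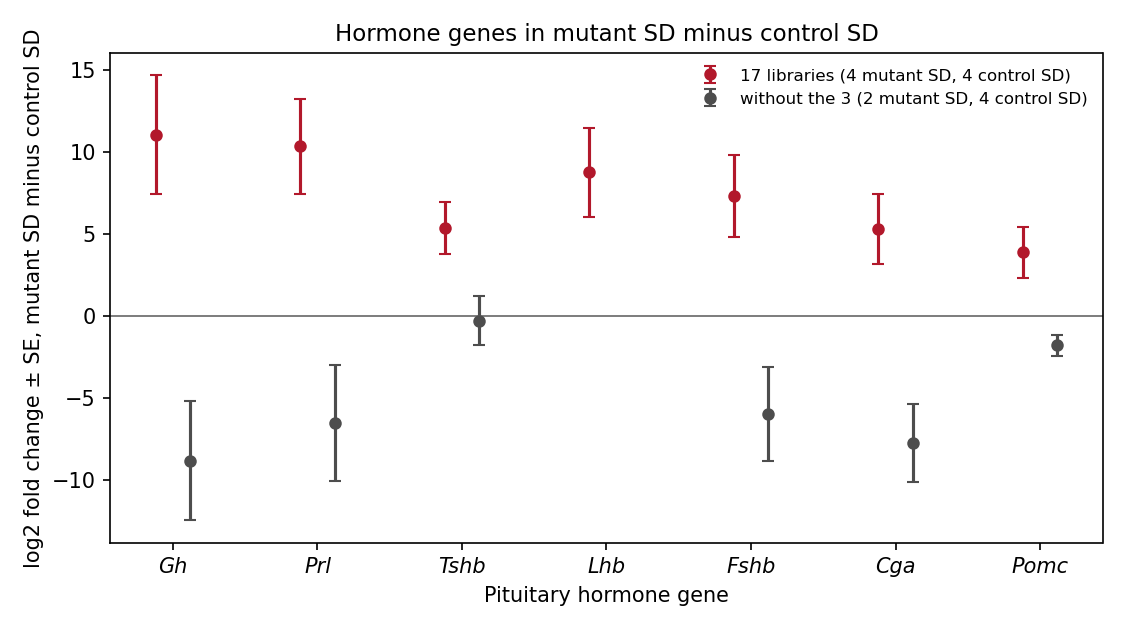
Log2 fold change ± SE (edgeR) of each hormone gene in mutant SD minus control SD, with all 17 libraries (red) and without the 3 libraries (grey). All 7 red points lie above 0 and all 6 grey points below it. Lhb was not tested without the 3, and where both remaining mutant libraries had 0 counts the grey value depends on the prior count.

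In control SD minus control ZT6, where control ZT6 replicate 1 is one of 4 reference libraries, the 7 hormone genes had a median log2 fold change of -3.17 with all 17 libraries and 0.38 over the 6 tested without the 3. Without the 3 libraries 2 genes were called there (0.00954% of 20971). Sgk1, a glucocorticoid-induced kinase, was at 69.2 to 119 CPM in control SD and 16.7 to 23.8 CPM in the remaining control ZT6 libraries, a log2 fold change of 2.35 ± 0.24 (edgeR adjusted p = 0.00362). With all 17 libraries it was 2.24 ± 0.33 (edgeR adjusted p = 0.114), and control ZT6 replicate 1 itself had 25.2 CPM. The other was Pck2, a mitochondrial gluconeogenic enzyme, which had 0 counts in control ZT6 replicates 2 to 4 but 390 counts in replicate 1, so its call existed only without that library. Whether those 0s are failed estimates of the quantification was not tested, and no fold is given. Pck2 was also the 1 gene called in mutant ZT6 minus control ZT6 without the 3 (0.00477%, edgeR adjusted p = 0.00918). The other 3 comparisons called 0 genes without them as well, with 675, 392 and 892 genes at an unadjusted p under 0.05 in mutant SD minus control SD, mutant SD minus mutant ZT6 and control ZT6 minus control ZT0.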

How the data were processed

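Polyadenylated RNA libraries of mouse hypothalamus were sequenced on an Illumina instrument, checked with FastQC, trimmed with Trimmomatic 0.38 and quantified with kallisto 0.44.0 against an Ensembl mouse transcript set, per the labels' protocols. The authors summed these estimated counts to genes with tximport and deposited them as 1 table of whole numbers, the expected counts used here. Of 41461 lines, 41456 remained after repeated gene identifiers were dropped. Totals of the 17 libraries ran from 14609454 to 46965594 counts. No 2 replicates of a group agreed within counting error (lowest chi-square per degree of freedom 33.97).

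The 17 libraries of 5 groups were fitted together with edgeR 4.0.16 in R 4.3.3 (quasi-likelihood F test, TMM, filterByExpr with a minimum count of 10, Benjamini-Hochberg adjustment, threshold 0.05), with and without the 3 libraries, and the script was tested on simulated data. DESeq2 1.42.0 was an alternative. For the 3 libraries against the 14, levels were compared with no test. Text names all pituitary hormone, transcription factor and receptor genes, up to 4 examples of each other list, and outside the lists the 20 highest and 10 lowest genes by the ratio between the 3 and the 14, the 5 smallest p-values per comparison being tabulated but printed only where called. Where a ratio's denominator was 0, a floor of 3 counts was used. The members, the gene lists and the tests were chosen with earlier results of these data known. A planned correlation within the 14 libraries and the values of some listed genes are not reported here. Of the list genes, 158 were found, and Kiss1 is not analysed here. Gene positions are from GENCODE M21 (282 of 282 identifiers matched) and promoter sequences from RefSeq, both on GRCm38.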

Additional observations from a re-analysis of the deposited data

Results flagged for a closer look

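In a group of 4 libraries the highest value was marked when its gap to the nearest other exceeded Dixon's 95% limit, which chance alone exceeds in about 1 of 20 groups. Among the 4 mutant SD libraries, replicate 1 stood apart for all 7 hormones. Gh was at 17450 CPM with the next library at 959 CPM, Prl at 2171 against 138 CPM, Lhb at 121 against 1.35 CPM and Fshb at 185 against 5.89 CPM. Tshb was at 29.3 against 1.96 CPM, Cga at 793 against 15.6 CPM and Pomc at 4096 against 104 CPM. Its summed levels of pituitary receptors, at 173 against 79.9 CPM, and of epithelial genes, at 82.4 against 10.7 CPM, stood apart in the same way.

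Among the 4 control ZT6 libraries, replicate 1 stood apart for 6 hormones and not for Tshb. Gh was at 543 CPM with the next library at 3.90 CPM, Prl at 50.7 against 3.20 CPM and Lhb at 7.98 against 0 CPM. Fshb was at 9.68 against 0.418 CPM, Cga at 47.6 against 8.05 CPM and Pomc at 1144 against 89.8 CPM. Both libraries were chosen for high Gh and Prl, so these marks describe that choice for those 2 genes. For the other hormones and the summed lists the marks come from the same chosen libraries. The chance rate given above therefore does not apply to them either, and they are a description.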

How the results depend on the processing

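No paired analysis was possible because the replicate numbers were given in accession order and the labels tie no sample of one group to a sample of another. The count of genes higher in each of the 3 libraries (90) depended most on the libraries compared. Set only against libraries of their own group, 2109 genes were higher, 74 by at least 2-fold, and 1197 lower. Leaving out 1 library at a time gave 91 to 578 higher (143 without control SD replicate 1, 176 without control SD replicate 2, 155 without mutant SD replicate 1, 319 without control ZT6 replicate 1 and 578 without mutant SD replicate 4), 9 to 44 by 2-fold (18 and 44 without the last 2) and 46 to 312 lower. Without a low-count filter 15 genes were 2-fold higher, and by CPM of library totals 17 were lower in place of 46. Without control ZT6 replicates 2 and 3 among the 14, added after the data were seen, 121 were higher and 13 by 2-fold. In the edgeR comparisons (0 calls each), removing the 3 libraries gave 2 calls in control SD minus control ZT6 and 1 in mutant ZT6 minus control ZT6, no filter gave 1 in the former, and DESeq2 gave 1, 18, 16, 15 and 23 in the order of the report. Leaving out 1 library gave 0 to 1 calls in control SD minus control ZT6 and in control ZT6 minus control ZT0, 0 to 3 in mutant SD minus mutant ZT6 (3 without mutant ZT6 replicate 1), 0 to 2 in mutant ZT6 minus control ZT6 (2 without mutant ZT6 replicate 1) and 0 in mutant SD minus control SD. The planned covariate of index numbers 43 to 46 gave 0 calls in each comparison. A covariate of 3 sets of index numbers (1 to 4, 43 to 46 and those between) was added after the data were seen. It gave 3 calls in mutant SD minus control SD: Prl, Lhb and Gm14617. In that comparison the fitted log2 fold changes turned, without the 3 libraries, to -8.82 for Gh, -6.52 for Prl, -7.75 for Cga and -1.79 for Pomc, and to -0.57 for Pomc without mutant SD replicate 1 alone (range -0.57 to 4.29). Without that library the values were 0.02 for Cga, 2.69 for Lhb, 6.70 for Prl and 7.21 for Gh. The first 2 are against groups at 0 counts and are no bounds. The causes were not tested. Counts stayed within 1.5 times in 157 alternative values, and direction and side of the threshold held in 111 alternative values of single genes, among them the 0.02 for Cga, which is close to no difference. Depth limits the low genes: 3 counts are 0.0639 to 0.205 CPM in the 17 libraries.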
